A study of Neurospora crassa OR74A with 13 samples.

Results

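A set of 59 genes of the filamentous fungus Neurospora crassa stood high in a single library of each of 3 wild-type triplicates. They were chosen by their FPKM (fragments per kilobase of transcript per 1000000 fragments), summed per gene. A member had a mean of at least 10 FPKM over the 9 wild-type libraries on Avicel, no carbon and sucrose. After 1 was added to each value, it also stood at least 2-fold above the geometric mean of the other two libraries of the group in Avicel replicate 1, in no carbon replicate 2 and in sucrose replicate 1. Of 9733 genes measured, 7789 reached the mean, and 61 of these met the whole rule. The rule leaves out 2 of the 61 by name, and they are not described here. Because the values in these 9 libraries chose the genes, the height of the 3 raised libraries is given as a description, with no test.

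Cultures started at 1000000 conidia per mL grew for 16 h with sucrose before the mycelium was washed and shifted to a new medium, and it was sampled 4 h after the shift. TBGK, a strain with deletions of the beta-glucosidase genes gh3-4 (NCU04952), gh1-1 (NCU00130) and gh3-3 (NCU08755), was shifted to cellobiose, to Avicel or to sucrose, with 1 library each. The wild type (WT), the reference strain FGSC 2489, was shifted to cellobiose with 1 library, and to Avicel (microcrystalline cellulose), medium lacking carbon or sucrose with biological triplicates. The study asked which genes respond to cellulose in the WT and whether the mutant shows a like response on cellobiose. The 3 deleted genes had 0 to 9.21 FPKM in the TBGK libraries and 189 to 50743 FPKM in the WT Avicel libraries.

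Neurospora is an aerobic fungus that can ferment sugar to ethanol: pyruvate is decarboxylated to acetaldehyde, which alcohol dehydrogenase reduces to ethanol. When sugar is lacking, phosphoenolpyruvate carboxykinase carries carbon from the citric acid cycle back towards sugar in gluconeogenesis. The libraries are bulk RNA, so a change in the share of cells that express a gene and a change in its RNA per cell cannot be told apart.

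The reference table of gene names held 55 of the 59 members and gave 8 a symbol. The named members were adh-1 (NCU01754), an alcohol dehydrogenase gene; acu-6 (NCU09873), the phosphoenolpyruvate carboxykinase gene; and nmt-1 (NCU09345), whose Schizosaccharomyces pombe counterpart makes the pyrimidine part of thiamine. Further ones were ccg-9 (NCU09559), a clock-controlled gene for a trehalose synthase; hak-1 (NCU00790), a potassium transporter gene; and rpn-4 (NCU01640), whose Saccharomyces cerevisiae namesake is a transcription factor of proteasome genes. The symbols thr-4 (NCU04277) and hcp-1 (NCU07221) completed them. The other 51 members carry only their locus numbers here.

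The depth of the WT triplicates, read from the deposited coverage, was 472 to 5640.4 aligned megabases. The raised library was the shallowest of its group on Avicel, with 472 against 2324 and 2201 megabases, and on sucrose, with 480.1 against 2149.9 and 1942 megabases. On no carbon it had 5525 megabases, against 2102 and 5640.4 in replicates 1 and 3. The part of depth in the height of these genes was not tested. The median member was covered 86.6 times per base in Avicel replicate 1, 564 times in no carbon replicate 2 and 37.0 times in sucrose replicate 1, and the least covered member 2.13, 16.4 and 0.487 times. For the 4 single libraries no depth can be read. The median FPKM of the 7789 genes lay between 114 and 134 in all 13 libraries.

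The members stood highest over the other libraries of the group in the raised library on Avicel and least so in that on sucrose. Their median level was 1433 FPKM in WT Avicel 1, against 129.8 FPKM in WT Avicel 2 and 87.8 FPKM in WT Avicel 3. It was 556 FPKM in WT no carbon 2, against 88.0 FPKM in WT no carbon 1 and 98.9 FPKM in WT no carbon 3. On sucrose it was 598 FPKM in WT sucrose 1, against 169 FPKM in WT sucrose 2 and 119 FPKM in WT sucrose 3. All 59 lay above both other libraries in each of the 3 groups, which largely follows from the rule of 2-fold over their geometric mean. With 2-fold asked over the higher of the other libraries instead, 43 members remained.

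The size of the step differed widely among members. The fold of the raised library over the other two was 2.07 to 1549.6 on Avicel (median 13.6), 2.05 to 498 on no carbon (median 4.49) and 2.04 to 13.2 on sucrose (median 3.13). For 45 members the largest of the 3 folds was that on Avicel, for 10 that on no carbon and for 4 that on sucrose. In all, 14 members stood at least 4-fold and 3 members (NCU07350, NCU07853 and NCU07352) at least 8-fold up in all 3 libraries. Over the 7789 genes, 10.9% stood at least 2-fold up in WT Avicel 1, 5.46% in WT no carbon 2, 5.65% in WT sucrose 1 and 0.783% in all 3. The rule fixes the members' counts here, and nothing is read from the comparison. In the opposite direction, 22 genes were at least 2-fold down in the same 3 libraries.

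**Figure D1:**
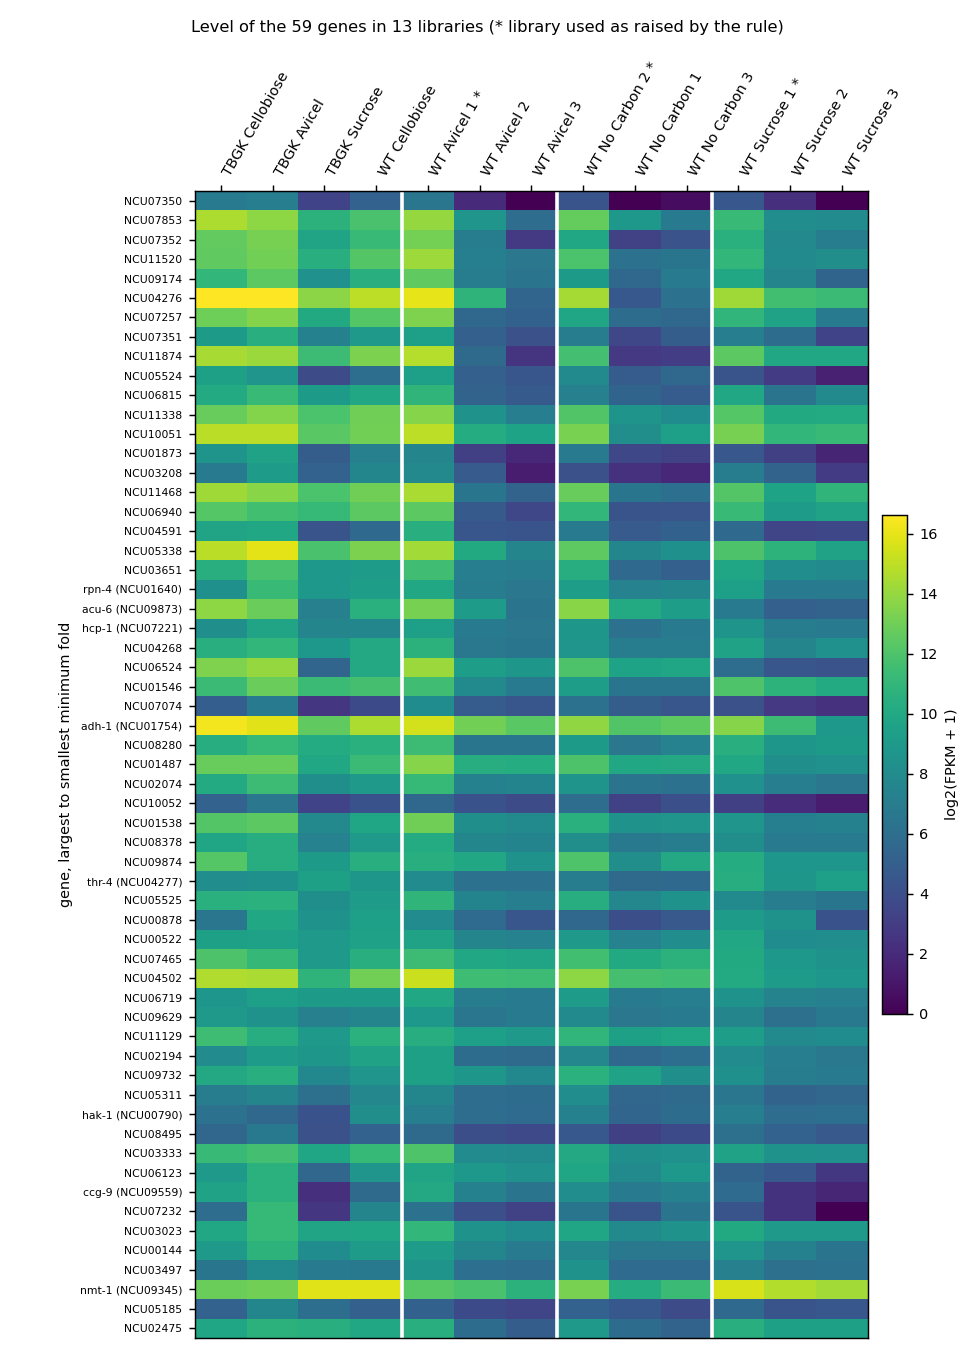
Level of the 59 genes (rows, largest smallest-fold at the top) in the 13 libraries (columns), as log2(FPKM + 1) on the colour scale, with the 3 raised WT libraries starred and placed first in their groups. The starred columns are brighter than the other WT columns of their group in every row, and the columns of TBGK Avicel and TBGK cellobiose resemble the starred Avicel column, with medians of 1997 and 1115 FPKM against 1433 FPKM.

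The member with the widest step was NCU11874. Its level was 27419 FPKM in WT Avicel 1, against 53.2 and 4.78 FPKM in WT Avicel 2 and 3. It was 3253 FPKM in WT no carbon 2, against 5.90 and 7.11 FPKM in WT no carbon 1 and 3. On sucrose it was 5516 FPKM in WT sucrose 1, against 937 and 1015 FPKM in WT sucrose 2 and 3. The steps were 1549.6-fold, 435-fold and 5.65-fold, and the smaller step on sucrose went with a higher level in the other two sucrose libraries.

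Averaged over the 9 libraries, the highest members were nmt-1, with a mean of 13400.3 FPKM, followed by NCU04276 with 12629 FPKM and adh-1 with 11113 FPKM. NCU04276 had 65365 FPKM in WT Avicel 1, against 1761 and 42.2 FPKM in WT Avicel 2 and 3. Its no carbon levels were 21020.3 FPKM in replicate 2, against 22.7 and 74.0 FPKM in replicates 1 and 3. Its sucrose levels were 19693 FPKM in replicate 1, against 3101 and 2578 FPKM in replicates 2 and 3. As with NCU11874, the libraries that were not raised were higher on sucrose than on Avicel or no carbon.

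The alcohol dehydrogenase gene adh-1 was abundant everywhere and stepped less far on Avicel and no carbon than on sucrose. It had 45486 FPKM in WT Avicel 1, against 8582 and 5255 FPKM in WT Avicel 2 and 3. It had 14843 FPKM in WT no carbon 2, against 4431 and 5871 FPKM in WT no carbon 1 and 3. It had 12382 FPKM in WT sucrose 1, against 2702 and 465 FPKM in WT sucrose 2 and 3. The other two sucrose libraries thus differed from each other for this gene as well, and the folds were 11.0 on sucrose, 2.91 on no carbon and 6.77 on Avicel.

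The gluconeogenesis gene acu-6 combined the step with a large difference between carbon sources. It had 9303 FPKM in WT Avicel 1, against 584 and 82.7 FPKM in WT Avicel 2 and 3. It had 12642 FPKM in WT no carbon 2, against 1161 and 599.8 FPKM in WT no carbon 1 and 3. On sucrose it had 115 FPKM in replicate 1, against 33.1 and 38.3 FPKM in replicates 2 and 3. All 3 sucrose libraries were low, and only the raised one overlapped in level with the Avicel libraries.

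The thiamine gene nmt-1 ran the other way between carbon sources. It had 4954 FPKM in WT Avicel 1, against 3589 and 1597 FPKM in WT Avicel 2 and 3. It had 9831 FPKM in WT no carbon 2, against 1249.7 and 2563 FPKM in WT no carbon 1 and 3. It had 50095 FPKM in WT sucrose 1, against 26826 and 19898 FPKM in WT sucrose 2 and 3. Every sucrose library lay above every Avicel and no carbon library, and the step in the raised libraries was small except on no carbon (2.07-fold, 5.49-fold and 2.17-fold in that order of groups).

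**Figure D2:**
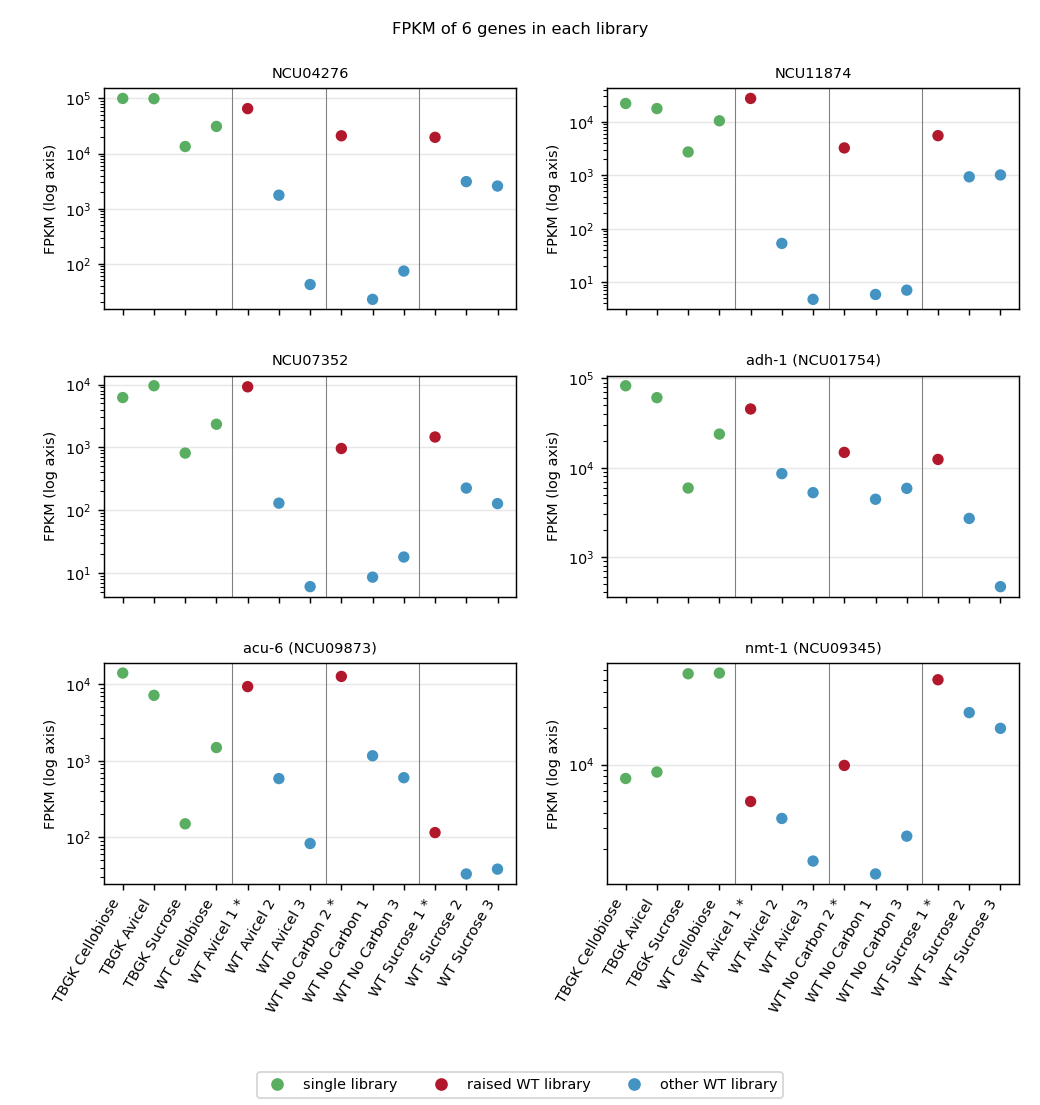
FPKM (log axis) of NCU04276, NCU11874, NCU07352, adh-1, acu-6 and nmt-1 in each of the 13 libraries, with single libraries in green, raised WT libraries in red and the other WT libraries in blue, 1 point per library. The red point is the highest of each WT triplicate in all 6 panels, and nmt-1 alone of the 6 has all 3 sucrose points above all Avicel and no carbon points.

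The remaining members with a symbol were less abundant. The trehalose synthase gene ccg-9 had 1030.5 FPKM in WT Avicel 1, against 159 and 83.2 FPKM in WT Avicel 2 and 3. Its no carbon levels were 281 FPKM in replicate 2, against 109 and 157 FPKM in replicates 1 and 3. On sucrose it had 55.6 FPKM in replicate 1, against 4.33 and 2.44 FPKM in replicates 2 and 3, which was the largest step of all members on sucrose (13.2-fold). The potassium transporter gene hak-1 had 134 FPKM in WT Avicel 1, 155 FPKM in WT no carbon 2 and 137 FPKM in WT sucrose 1, against 40.9 to 65.5 FPKM in the other 6 libraries of these groups. The folds of rpn-4 were 5.74 on sucrose, 3.25 on no carbon and 8.91 on Avicel, those of hcp-1 were 3.13, 4.89 and 6.29 in that order, and those of thr-4 were 2.45, 2.43 and 3.45.

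At the edge of the rule, just inside on the smallest fold were NCU02475 (2.04), NCU05185 (2.05) and nmt-1 (2.07), and just outside were NCU03408 (1.96), the cellodextrin transporter gene cdt-1 (1.96) and NCU08397 (1.96). Just inside on mean level were NCU07350 (15.3 FPKM), NCU10052 (19.5 FPKM) and NCU05185 (24.4 FPKM), and just outside were NCU11364 (9.39 FPKM), NCU07049 (7.35 FPKM) and NCU11295 (3.19 FPKM). Members with a large step on Avicel also tended to have a large step on no carbon. Across the 59 genes the Spearman rank correlation of the 2 folds was 0.71, that of Avicel with sucrose 0.56 and that of no carbon with sucrose 0.29. Over all 7789 genes the same correlations were 0.39, 0.12 and 0.12. Genes are not independent replicates, each fold comes from the same 3 libraries for every gene, and the members were cut on these folds.

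Position on the chromosomes was a feature the rule did not use. Of the 59, 9 (15.3%) had another member as a neighbouring gene on the contig. Among the 7730 other genes with a mean of at least 10 FPKM, 84 (1.09%) had a member as neighbour. Those genes were not matched to the members in level, and no test was made. The 9 formed 4 runs, whose genes are named for their position. The genes NCU07352, NCU07351 and NCU07350 lay at supercont10.1:6272682-6279584, NCU04276 and thr-4 at supercont10.5:5467787-5472343, NCU05525 and NCU05524 at supercont10.6:1619871-1625226, and NCU10051 and NCU10052 at supercont10.7:3215705-3223117. Positions are those in the deposited files, whose genome build is not given in the sources used here. The members were spread over 7 contigs, and their median transcript length was 1897 bases, against 1740 bases for the other genes.

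Genes within a run shared the step and differed in level. On the 3-gene run, NCU07352 had 9194 FPKM in WT Avicel 1, against 129.8 and 6.10 FPKM in WT Avicel 2 and 3. Its middle neighbour NCU07351 had 649.5 FPKM in that library, against 33.8 and 16.8 FPKM, and NCU07350 had 90.4 FPKM, against 2.99 FPKM and a listed 0. The step on no carbon was 70.9-fold for NCU07352, 6.88-fold for NCU07351 and 16.2-fold for NCU07350. In the pair of NCU04276 and thr-4, which are 1692 bases apart, the Avicel folds were 237 and 3.45. The genes NCU07352 and NCU07351 were 264 bases apart and NCU07351 and NCU07350 76 bases apart, so reads near their ends may have been assigned to the wrong neighbour, which was not tested.

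The 4 single libraries took no part in the choice of the members. In them the 59 genes were high as well, above all in TBGK on Avicel. Their median level was 1115 FPKM in TBGK cellobiose, 1997 FPKM in TBGK Avicel, 453 FPKM in TBGK sucrose and 765 FPKM in WT cellobiose. TBGK Avicel was the highest of the 4 for 40 members, TBGK cellobiose for 13, WT cellobiose for 5 and TBGK sucrose for 1. TBGK sucrose was the lowest of the 4 for 49 members. This order was not counted over all genes, so nothing particular to the members is read from it. No single library has a replicate, so the following differences between libraries have no replicate check.

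Within TBGK, the members were mostly higher on cellobiose and Avicel than on sucrose. On cellobiose against sucrose, 42 members were at least 2-fold higher and 3 lower, against 27.6% and 23% of the 7789 genes, and their median fold was 4.15. On Avicel against sucrose, 50 were at least 2-fold higher and 2 lower, against 25.7% and 20.5% of the genes, and their median fold was 5.94. The members' range on Avicel against sucrose ran from 0.154 for nmt-1 to 382 for NCU06524. On cellobiose against Avicel, 2 were at least 2-fold higher (NCU09874 and NCU11129) and 22 lower, against 8.99% and 7.63% of the genes. The 3 sides of this triangle share their libraries and are not separate evidence.

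Individual members showed what lay behind these counts. NCU06524 had 10589 FPKM in TBGK cellobiose and 16408 FPKM in TBGK Avicel, against 42.0 FPKM in TBGK sucrose. The gene ccg-9 had 751 FPKM in TBGK cellobiose and 1546 FPKM in TBGK Avicel, against 3.94 FPKM in TBGK sucrose. NCU07232 was highest on Avicel, with 2205 FPKM in TBGK Avicel, 61.5 FPKM in TBGK cellobiose and 5.23 FPKM in TBGK sucrose. These 3 genes were also low in all 3 WT sucrose libraries, with at most 60.6 FPKM.

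The fermentation gene adh-1 had 82846 FPKM in TBGK cellobiose and 60916 FPKM in TBGK Avicel, against 5918 FPKM in TBGK sucrose. The gene acu-6 had 13989 FPKM in TBGK cellobiose and 7156 FPKM in TBGK Avicel, against 149.6 FPKM in TBGK sucrose. Against this direction, nmt-1 had 7673 FPKM in TBGK cellobiose and 8673 FPKM in TBGK Avicel, against 56159 FPKM in TBGK sucrose. The gene thr-4 followed it at a lower level, with 281 FPKM in TBGK cellobiose and 328 FPKM in TBGK Avicel, against 696 FPKM in TBGK sucrose. NCU00878 had 92.2 FPKM in TBGK cellobiose, 990.2 FPKM in TBGK Avicel and 357 FPKM in TBGK sucrose, and was lowest on cellobiose.

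The WT cellobiose library was mostly above the WT sucrose triplicate for these genes. Against the geometric mean of the 3 sucrose libraries, 46 members were at least 2-fold higher and 0 lower, against 19.6% and 8.61% of all genes, with a median fold of 4.14. NCU07232 stood farthest up (40.5-fold, with 191 FPKM in WT cellobiose against 18.7, 4.37 and 0 FPKM on sucrose). The gene thr-4 stood farthest down (0.608-fold, with 442 FPKM in WT cellobiose against 1322, 446 and 654 FPKM on sucrose). The raised sucrose library is part of that mean, and without it 52 members were at least 2-fold higher. The rule chose the members by these sucrose levels, with replicates 2 and 3 as the low ones. Both counts of higher members therefore carry that choice, and the 52 rests on the low libraries alone. The WT sucrose libraries are also marked in the labels as shared with an earlier deposit. Carbon source, culture and deposit cannot be told apart in this comparison.

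The TBGK libraries on Avicel and sucrose can be set beside the WT triplicates on the same carbon source. On Avicel, 31 of the 59 members were at or above the raised WT library, 27 lay between it and the others, and 1, hak-1, was at or below the higher of the other two. Counted the same way over the 7789 genes, 3801 were at or above it, 676 between and 3312 at or below. In all, 58 were above both libraries that were not raised, against 39.7% of the 7789 genes, and 58 at least 2-fold above their geometric mean, against 15.9%. The median member stood 16.2-fold above the other two WT Avicel libraries and 1.04-fold over the raised one. On sucrose, 13 members were at or above the raised WT library, 40 lay between and 6 were at or below the higher of the other two, so that 53 were above both, against 40.2% of the genes. Over the 7789 genes, 4419 were at or above the raised library, 955 between and 2415 at or below. At least 2-fold above the geometric mean of those libraries were 38 members, against 8.45% of the genes. The median member in TBGK sucrose stood 2.63-fold above the other two WT sucrose libraries and at 0.682 of the raised one. The rule took the other two WT libraries as low, so a library without that condition would tend to lie above them. Strain, culture and deposit cannot be told apart here, because the 9 WT triplicate libraries are marked in the labels as shared with an earlier deposit.

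Over the whole triplicate, 55 members were at least 2-fold higher in TBGK Avicel than in WT Avicel and 0 lower, against 13.6% and 10.2% of all genes. The rule chose the members by their levels in this triplicate, with WT Avicel 2 and 3 as the low ones. The counts are therefore not free of that choice and are given as a description. NCU07232 had 2205 FPKM in TBGK Avicel, against 73.7, 15.6 and 8.21 FPKM in WT Avicel. NCU11874 had 17742 FPKM in TBGK Avicel, which lay below the 27419 FPKM of WT Avicel 1 and far above the 53.2 and 4.78 FPKM of WT Avicel 2 and 3. The potassium transporter gene hak-1 had 48.2 FPKM in TBGK Avicel, against 134, 59.0 and 54.2 FPKM in WT Avicel. It was also the lowest member relative to WT on sucrose, with 17.0 FPKM in TBGK sucrose against 137, 59.0 and 65.5 FPKM in WT sucrose.

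On sucrose, 25 members were at least 2-fold higher in TBGK than in WT and 3 lower, against 8.55% and 2.71% of the genes, and the count of higher ones depended on single WT libraries. It was 38 without WT sucrose 1, 15 without WT sucrose 2 and 7 without WT sucrose 3. The rule chose the members by their levels in these 3 libraries, so none of these counts is free of that choice. On cellobiose, where both strains have 1 library, 27 members were at least 2-fold higher in TBGK and 5 lower, against 19.1% and 16.9% of the genes. NCU04591 had 847 FPKM in TBGK cellobiose, against 51.2 FPKM in WT cellobiose, and ccg-9 had 751 FPKM, against 53.0 FPKM. In the opposite direction, nmt-1 had 7673 FPKM in TBGK cellobiose, against 56923 FPKM in WT cellobiose, and hak-1 had 73.8 FPKM, against 299.9 FPKM.

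**Figure D3:**
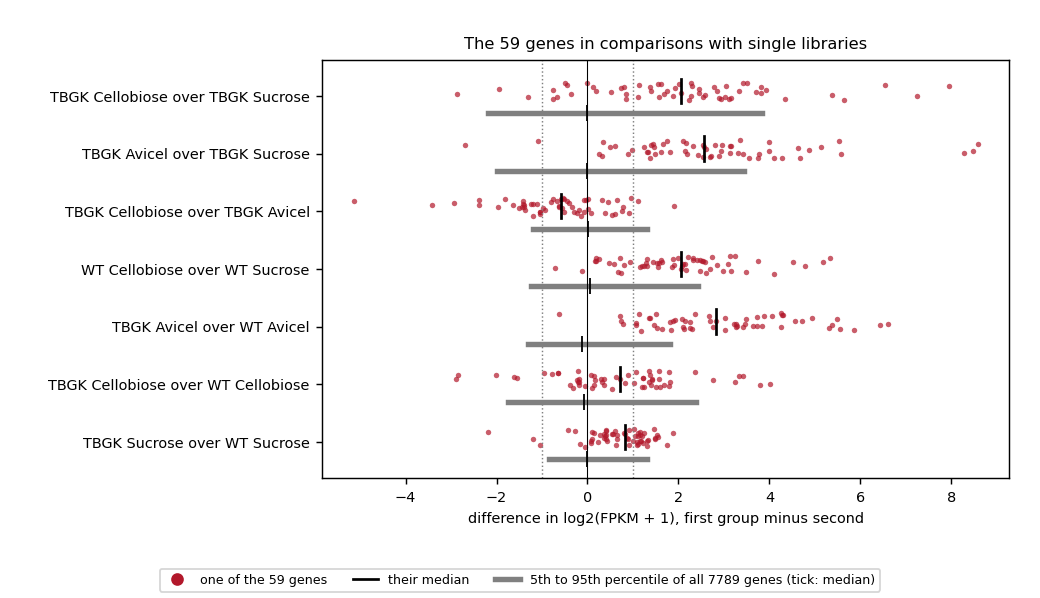
Difference in log2(FPKM + 1), first group minus second, of each of the 59 genes (red points, black bar at their median) in 7 comparisons that use single libraries, over a grey bar for the 5th to 95th percentile of all 7789 genes with a tick at their median. Dotted lines mark a 2-fold difference, and the members' median lies right of the genes' median in every comparison except TBGK cellobiose over TBGK Avicel, where the median fold was 0.670. Comparisons with WT Avicel or WT sucrose use values by which the genes were chosen.

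Among the WT triplicates, the question was which members differ between carbon sources once their spread within groups is counted. The 9 libraries were fitted together with limma on log2(FPKM + 1) over 8759 genes, with Benjamini-Hochberg adjustment and a threshold of 0.05, and all 59 members passed the filter on low values. Between Avicel and no carbon, 0 members had an unadjusted p under 0.05 by limma, against 1697 of the 8759 genes. After adjustment limma called 0 members higher and 0 lower, against 3.9% and 1.72% of all genes. Between Avicel and sucrose it called 7 higher and 2 lower, against 33.9% and 24.5% of all genes. Between no carbon and sucrose it called 10 higher and 3 lower, against 40.2% and 24.1%. The members' median standard error was 1.17 log2 units, against 0.29 over all genes, a spread that the rule itself selects, so a member without a call is not shown to be alike between groups.

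Among the largest differences called in both comparisons with sucrose were those of NCU06524, NCU06123 and ccg-9, which were low on sucrose. NCU06524 had 17539.8, 613 and 439 FPKM on Avicel and 804, 3989 and 867 FPKM on no carbon, against 60.6, 20.5 and 18.2 FPKM on sucrose, in replicates 1, 2 and 3, and the groups on Avicel and no carbon did not overlap with sucrose. Its log2 difference was 5.84 (SE 1.32, adjusted p 0.00473 by limma) for Avicel against sucrose and 5.58 (SE 1.32, adjusted p 0.00543) for no carbon against sucrose. NCU06123 had 849, 464 and 332 FPKM on Avicel and 238, 873 and 471 FPKM on no carbon, against 37.9, 22.6 and 5.39 FPKM on sucrose. Its differences were 4.82 (SE 0.71, adjusted p 0.000424 by limma) and 4.68 (SE 0.71, adjusted p 0.00046). The gene ccg-9, with no overlap either, rose by 4.57 (SE 1.17, adjusted p 0.00878 by limma) on Avicel and by 4.07 (SE 1.17, adjusted p 0.0139) on no carbon.

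The gene acu-6 rose by 5.27 (SE 1.67, adjusted p 0.0214 by limma) on no carbon against sucrose. This call was lost without WT no carbon 2 (log2 difference 3.96, adjusted p 0.0781), without WT sucrose 2 (adjusted p 0.0615) and without WT sucrose 3 (adjusted p 0.0593). The other members called higher were NCU04502, NCU10052, NCU07074 and NCU01487 on Avicel, with log2 differences of 2.38 to 3.39, and NCU07232, NCU04502, NCU10052, NCU09732, NCU11129 and NCU07465 on no carbon, with 1.59 to 3.46. Of these, NCU07074, NCU01487, NCU09732 and NCU07465 were named after their values were seen.

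The members called lower were nmt-1 and thr-4 in both comparisons and NCU01546 on no carbon. On Avicel nmt-1 fell by 3.29 (SE 0.75, adjusted p 0.00500 by limma), and on no carbon it fell by 3.24 (SE 0.75, adjusted p 0.00496). These 2 calls were lost under quantile normalization, with adjusted p of 0.0862 on Avicel and 0.128 on no carbon. The gene thr-4 had 261, 77.0 and 73.1 FPKM on Avicel and 53.3, 128 and 51.2 FPKM on no carbon, against 1322, 446 and 654 FPKM on sucrose. It fell by 2.67 (SE 0.60, adjusted p 0.00463 by limma) on Avicel and fell by 3.35 (SE 0.60, adjusted p 0.00122) on no carbon. NCU01546 had 88.0, 608 and 87.9 FPKM on no carbon, against 4113, 1711 and 1136 FPKM on sucrose, and fell by 3.57 (SE 1.21, adjusted p 0.0283 by limma), a call lost in 4 of the 9 fits that leave out 1 library (adjusted p up to 0.0935).

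Setting aside the 3 raised libraries removes the values by which the members were chosen to spread, so their standard errors shrink by construction. The counts from the remaining 6 libraries are therefore a description of those libraries and support no carbon source call beyond those above. With them limma called 17 members higher and 21 lower between Avicel and sucrose, against 43.9% and 30.5% of all genes, and 18 higher and 22 lower between no carbon and sucrose, against 46.3% and 31.3%. All 9 and 13 calls of the fit on 9 libraries were among them. Between Avicel and no carbon it called 3 higher and 2 lower, against 7.96% and 9.35%. The log2 differences of those 5 were 1.67 for NCU03651, 1.08 for NCU02074, 0.71 for NCU08378, -0.36 for NCU03333 and -0.72 for rpn-4, the first 4 being named after their values were seen.

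In the remaining 6 libraries the members lay on either side of sucrose, as genes did in general. In 24 of the 59 both sucrose libraries lay above all 4 Avicel and no carbon libraries, against 36% of all genes, and in 18 both lay below, against 45%. NCU11874 was of the first kind, with log2 differences from sucrose of -5.79 on Avicel and -7.03 on no carbon in these libraries. In the fit on all 9 libraries its differences were -3.09 (SE 3.23, adjusted p 0.436 by limma) and -4.94 (SE 3.23, adjusted p 0.208), neither of them called. NCU02475 had 58.4 and 28.5 FPKM on Avicel and 56.4 and 38.2 FPKM on no carbon, against 704 and 685 FPKM on sucrose, in the libraries that were not raised. The gene adh-1 was of the second kind, with 8582 and 5255 FPKM on Avicel and 4431 and 5871 FPKM on no carbon, against 2702 and 465 FPKM on sucrose.

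**Figure D4:**
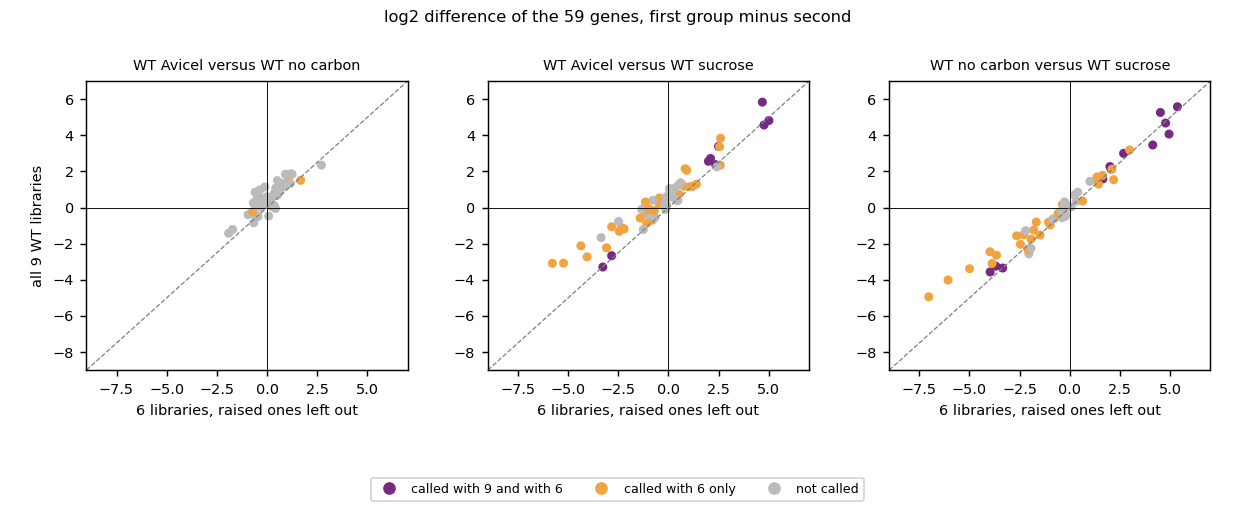
Log2 difference of the 59 genes between WT groups, first group minus second, in the fit on all 9 libraries (vertical axes) against the fit on the 6 libraries left when the raised ones are set aside (horizontal axes), with the dashed line marking equal values. Purple points (0, 9 and 13 in the panels from left to right) were called by limma in both fits, and orange points only with 6 libraries, where leaving out the values that chose the genes lowers their spread.

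Lists of genes by function, made with earlier results known, were looked up in the raised libraries, and 2 of the lists held a member (adh-1 for fermentation, acu-6 for gluconeogenesis). The fermentation list held only 1 gene, adh-1 itself. The list for the glyoxylate cycle and gluconeogenesis took 7 genes by their acu and fbp symbols, not all of them enzymes of these pathways. Of these, acu-6 met the rule. The malate synthase gene acu-9 came near it, with folds of 4.54 on sucrose, 4.53 on no carbon and 1.89 on Avicel. The fructose bisphosphatase gene fbp-1 missed it on Avicel alone, with a fold of 1.96. Of the 6 glycolysis genes, 2 were at least 2-fold up in WT Avicel 1 and 0 in the other two raised libraries. Of 12 heat shock genes, 3, 0 and 1 were at least 2-fold up, and of 6 antioxidant enzyme genes 0, 0 and 3. Of 5 alternative respiration genes at the mean level, 1, 0 and 1 were, with the gene that the rule leaves out not counted. None of the lists for ergosterol synthesis, light and clock, nitrogen, sulfur, phosphate, metals, or drug and ion transport held a gene that was 2-fold up in all 3.

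Markers of conidia, the spore type that such mycelium can form, did not follow the raised libraries. Of 9 markers, 1 was at least 2-fold up in WT Avicel 1, 0 in WT no carbon 2 and 1 in WT sucrose 1, and none in all 3, with median folds of 0.829, 0.975 and 0.768. Their summed level was 89924 FPKM in WT Avicel 1, against 157717 and 157884 FPKM in WT Avicel 2 and 3. It was 341807 FPKM in WT no carbon 2, against 381893 and 376976 FPKM in WT no carbon 1 and 3, and 1776 FPKM in WT sucrose 1, against 2015 and 798 FPKM in WT sucrose 2 and 3. These sums rest mainly on ccg-1 and eas, which went opposite ways in WT Avicel 1. There ccg-1 had 52427 FPKM, against 135310 and 138708 FPKM in WT Avicel 2 and 3. In the same libraries eas had 34620 FPKM, against 20371 and 17326 FPKM. The markers con-6 and csp-2 were also higher in WT Avicel 1 than in both others, and csp-1, con-13, con-10, acon-3 and fl were lower. Markers of sexual tissue were lower in sum in the raised libraries on Avicel and sucrose. Of 3 at the mean level, 0 were 2-fold up in any raised library, and their median folds were 0.349 for Avicel, 0.884 for no carbon and 0.291 for sucrose. The summed level of the 4 markers on the list was 1242 FPKM in WT Avicel 1, against 3487 and 3978 FPKM in WT Avicel 2 and 3, and 15.2 FPKM in WT sucrose 1, against 63.9 and 38.9 FPKM in WT sucrose 2 and 3. It was 1685 FPKM in WT no carbon 2, against 1185 and 1588 FPKM in WT no carbon 1 and 3. The pheromone receptor gene pre-1 had 19.0 FPKM in WT Avicel 1, against 218 and 248 FPKM in WT Avicel 2 and 3. The part of these markers in the height of the 59 genes was not tested.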

How the data were processed

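The deposited values were FPKM per transcript or gene, which per the submitters' processing notes the authors made using TopHat and Cufflinks 0.9.3; the genome build is not given in the sources used here. Coverage per base and transcript length are given in the triplicate files, per the file headers; aligned megabases were computed from coverage times effective length. The 4 single libraries hold no coverage, and FPKM divides by a library total, so a few very abundant genes can shift all others. The 9907 transcripts of the triplicate files were summed to 9733 genes. The members, gene lists and tests were chosen with earlier results of these data known.

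The fits used R 4.3.3 and limma 3.58.1, with moderated variances that follow the mean level, on log2(FPKM + 1), for genes with at least 1 FPKM in at least 3 of 9 libraries. Fold changes on this scale understate the change of low genes. The scripts were tested on simulated data. P-values set a difference between groups against the scatter of biological replicates, whose libraries also differed in depth. Rose and fell are used only for calls at an adjusted p under 0.05. Folds with single libraries compare FPKM + 1, WT triplicates averaged as geometric means. Same-numbered libraries of different groups did not deviate together in most pairs (3 of 9 correlations over 0.1), so the main fit has no block. Alternatives were other pseudocounts, filters, scalings, thresholds and left-out libraries. Genes were named by symbol, largest smallest-fold, mean level, nearness to a threshold, or largest differences among calls and single libraries. Gene names came from a RefSeq table of assembly NC12, whose coordinates were not used. Sequences of the members are not shown. Plots were drawn in matplotlib 3.10.9, and tables made in pandas 2.3.3 and numpy 2.4.6 under Python 3.11.15.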

Additional observations from a re-analysis of the deposited data

Results flagged for a closer look

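For 10 of the 59 members the difference between cellobiose and sucrose had opposite signs in the strains, 9 of them lower on cellobiose in TBGK and higher on it in the WT. The share over all genes was not computed, so nothing about the members as a set is read from this count. The rule took WT sucrose 2 and 3 as low, so WT cellobiose would tend to lie above them. The WT side of these differences is therefore not free of the choice of members. The 4 listed here are those whose WT cellobiose library lay above all 3 WT sucrose libraries while TBGK cellobiose lay below TBGK sucrose. The log2 difference, cellobiose minus sucrose, was -1.94 in TBGK and 2.1 in the WT for NCU00878. It was -2.87 in TBGK and 0.929 in the WT for nmt-1 (NCU09345). It was -0.762 in TBGK and 2.33 in the WT for NCU02194, and -0.356 in TBGK and 1.31 in the WT for NCU06719. TBGK on either sugar and the WT on cellobiose have 1 library each, and the difference between the strains was not tested.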

How the results depend on the processing

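The number of members was 165 with a fold of at least 1.5 and 25 with a fold of at least 3; the other 8 settings of the rule gave 43 to 66. Without the 3 raised libraries, members called higher and lower were 3 and 2 for Avicel against no carbon, 17 and 21 for Avicel against sucrose, and 18 and 22 for no carbon against sucrose. Quantile normalization left 1 member called lower for Avicel against sucrose, and moved the median log2 difference of all genes from sucrose to 0.01 on Avicel and 0.07 on no carbon, against 0.26 and 0.39 with FPKM as deposited; for no carbon its calls over all genes were 2569 higher and 2406 lower, against 3522 and 2111. Median-of-ratios scaling left 1 member at least 2-fold lower in TBGK Avicel than in TBGK sucrose.

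Leaving out each library in turn gave 0 to 0 members called higher and 0 to 0 lower for Avicel against no carbon, 3 to 11 higher and 2 to 9 lower for Avicel against sucrose, and 2 to 13 higher and 2 to 6 lower for no carbon against sucrose. The calls for Avicel against sucrose were 4 higher and 9 lower without WT Avicel 1, 11 higher without WT sucrose 1, and 3 higher without WT sucrose 2 or 3. For no carbon against sucrose they were 3 higher and 5 lower without WT no carbon 2, 6 lower without WT Avicel 1, 3 higher without WT sucrose 2, and 2 higher and 5 lower without WT sucrose 3. Members at least 2-fold from the WT triplicate were 7 to 38 higher and 1 to 3 lower for TBGK sucrose, 41 to 52 higher and 0 to 1 lower for WT cellobiose, and 48 to 58 higher and 0 to 0 lower for TBGK Avicel. Log2 differences were recomputed for 11 calls, at most the 3 largest per direction and comparison. Of their 176 recomputed values, 167 kept the call, 9 lost it and 0 changed sign. The smaller calls were not followed one by one. Of all 13 calls for no carbon against sucrose, as few as 5 remained (without WT sucrose 2 or 3). Of all 9 for Avicel against sucrose, as few as 5 remained (without the same libraries). The cause was not tested.

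The replicate numbers do not pair the libraries throughout: same-numbered libraries correlated at -0.35 to 0.486, with 3 of 9 pairs over 0.1. The 3 pairs of raised libraries, whose numbers differ in part, correlated at 0.145 to 0.487. With a replicate block the calls were 0 and 0, 8 and 2, and 11 and 3 in the same order.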
